A study of Mus musculus with 6 samples.

Results

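Hamp and Hamp2 encode the mouse hepcidins, and the 8 other genes described here belong to the system that senses iron, sets hepcidin and moves iron across the hepatocyte membrane: Trf, Tfrc, Tfr2, Hfe, Slc40a1, Bmp6, Id1 and Smad7. These 10 genes were chosen by name from the 55487 genes of the count table, with earlier results of these data known. All 10 passed the filter on low counts that left 14046 genes to test. Liver RNA came from 6 wild-type mice, male C57BL/6J by the study's methods, kept on normal chow. Of these, 3 were injected subcutaneously with GalNAc-siNC, a control siRNA, and 3 with GalNAc-siRnf10, an siRNA against the ubiquitin ligase gene Rnf10, which the paper names GalNAc-siRnf10-2. GalNAc is a sugar ligand that hepatocytes take up, so the treatment is directed to hepatocytes while the whole liver was sequenced. Livers were taken at 17 weeks of age, each mouse gave 1 library, and all 6 libraries carry the same batch label.

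Hepcidin is a peptide hormone that hepatocytes secrete. It binds ferroportin, the iron exporter encoded by Slc40a1, and causes its degradation, so that less iron enters the plasma from gut, macrophages and liver. Hepatocytes raise Hamp transcription when BMP ligands from sinusoidal endothelial cells act through receptors, the coreceptor hemojuvelin and SMAD proteins, when transferrin saturation is sensed through TFR2 and HFE, and when IL-6 acts through STAT3. A second layer of control acts on mRNA: iron regulatory proteins bind hairpins named iron-responsive elements, which protect Tfrc mRNA from decay and block translation of ferroportin and ferritin mRNA when iron is low.

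The stretch of promoter that carries the BMP and STAT input to hepcidin is shown for both genes. Whether its differences bear on the counts below was not tested. Both lines run 5′ to 3′ on the minus strand of chromosome 7 (RefSeq start sites, GRCm38.p6), from -159 to -20 relative to the Hamp start at chr7:30944049-30944188, and from -156 to -17 relative to the Hamp2 start at chr7:30924198-30924337. Capitals mark the core of the proximal BMP-responsive element, or the same place in Hamp2, and the STAT motif. Neither stretch overlaps an annotated exon, and that of Hamp2 lies in an intron of its longer transcript Hamp2-202.
Hamp: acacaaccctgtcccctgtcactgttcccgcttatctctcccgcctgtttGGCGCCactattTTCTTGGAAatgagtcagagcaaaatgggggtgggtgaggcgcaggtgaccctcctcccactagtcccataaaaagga
Hamp2: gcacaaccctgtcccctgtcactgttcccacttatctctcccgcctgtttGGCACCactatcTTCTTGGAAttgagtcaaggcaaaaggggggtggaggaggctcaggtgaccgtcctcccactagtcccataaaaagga
The element core differed by 1 substitution, G4A, counted from 1 at its 5′ end with the Hamp base first, and the STAT motif TTCTTGGAA was the same in both. Searched on both strands over 250 bases before 32851 RefSeq start sites, GGCGCC was found in 9.59%, TTCNNNGAA in 7.02%, both in 0.368%, and TTCTTGGAA itself in 0.365%. The core and the STAT motif do not overlap. Of the 6 members whose promoters were searched, Tfrc also held GGCGCC, at 1 of its 2 start sites, and Tfr2, Hfe and Bmp6 held neither motif. The promoters of Trf, Slc40a1, Id1 and Smad7 were not searched. The 2 hepcidin mRNAs were 94.6% identical over 410 aligned bases, and the longest run they shared was 87 bases, shorter than the reads of 150 bases. No stretch of 100 or 150 bases of one mRNA occurred in the other. Shorter stretches are shared. No read of the full 150 bases can fall wholly in them, but a read cut to 87 bases or fewer could. Such reads could have been assigned to either gene, and the split of counts between the genes is uncertain to that extent.

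Iron-responsive elements of Tfrc and Slc40a1 lie in different UTRs, and those found by a pattern search are also shown. The search has a fixed loop and a fully paired stem, so it can miss elements. Their part in the counts below was not tested. A search for a hairpin with C, 5 bases and the loop CAGTG followed by A, C or T, with a stem of 5 paired bases in which G-U pairs were allowed, found 4 sites in the 3′ UTR of transcript Tfrc-201, at positions 3321, 3700, 3765 and 3812, and 1 in the 5′ UTR of Slc40a1-201, at position 96. Capitals mark the loop.
Tfrc 3321: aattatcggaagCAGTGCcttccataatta
Tfrc 3700: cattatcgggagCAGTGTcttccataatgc
Tfrc 3765: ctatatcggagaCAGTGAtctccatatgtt
Tfrc 3812: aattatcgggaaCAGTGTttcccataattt
Slc40a1 96: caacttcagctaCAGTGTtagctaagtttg
A match was found in 0.519% of 21193 genes with a 3′ UTR and in 0.108% of 21200 genes with a 5′ UTR. Fth1 and Ftl1, the ferritin genes, and Alas2 each held 1 in the 5′ UTR.

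Total counts were between 26854377 and 33058645 per library. Rnf10, the targeted gene, checked the labels: its normalized counts were 3869, 4536 and 4040.2 in GalNAc-siNC-treated mice and 1738, 1820.5 and 1793 in GalNAc-siRnf10-treated mice (log2 fold change -1.22, SE 0.07, adjusted p = 3.29e-09, edgeR quasi-likelihood test with Benjamini-Hochberg adjustment over all genes tested). Normalized counts are counts scaled by TMM to a common library size, and folds are GalNAc-siRnf10 over GalNAc-siNC. GalNAc-siNC-treated mouse 1 stood apart from its group: the chi-square of counts per gene was 27.8 and 27.1 against the other two mice, 9.53 between those, and at most 5.07 within the GalNAc-siRnf10 group. The value without this mouse is therefore given beside each member's result. Hepatocyte markers were the most abundant of the lists examined, with summed levels of 52274 to 55746 CPM (counts scaled to library size) in GalNAc-siNC-treated mice and 79637 to 82473 in GalNAc-siRnf10-treated mice, and 5 of 6 were higher (Alb, log2 fold change 0.64). In whole liver, fewer cells of a type and less RNA per cell cannot be told apart.

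Hamp2, Tfrc and Slc40a1 were higher and Trf, Tfr2 and Smad7 were lower after GalNAc-siRnf10. These 6 of 10 members were called at an adjusted p under 0.05 (edgeR), beside 14.0% of all genes tested. The members were chosen with earlier results of these data known, so their shares here cannot be read as enrichment. The 3 higher members stand beside 6.71% of all genes called higher, and the 3 lower members beside 7.28% called lower. The groups did not overlap in normalized count for 8 of the 10, beside 32.8% of all genes. The median log2 fold change was -0.04 over the members and 0.00 over all genes. With 3 mice per group, the exact two-sided permutation test of a single gene cannot go below p = 0.1, which these 8 genes reached.

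**Figure D1:**
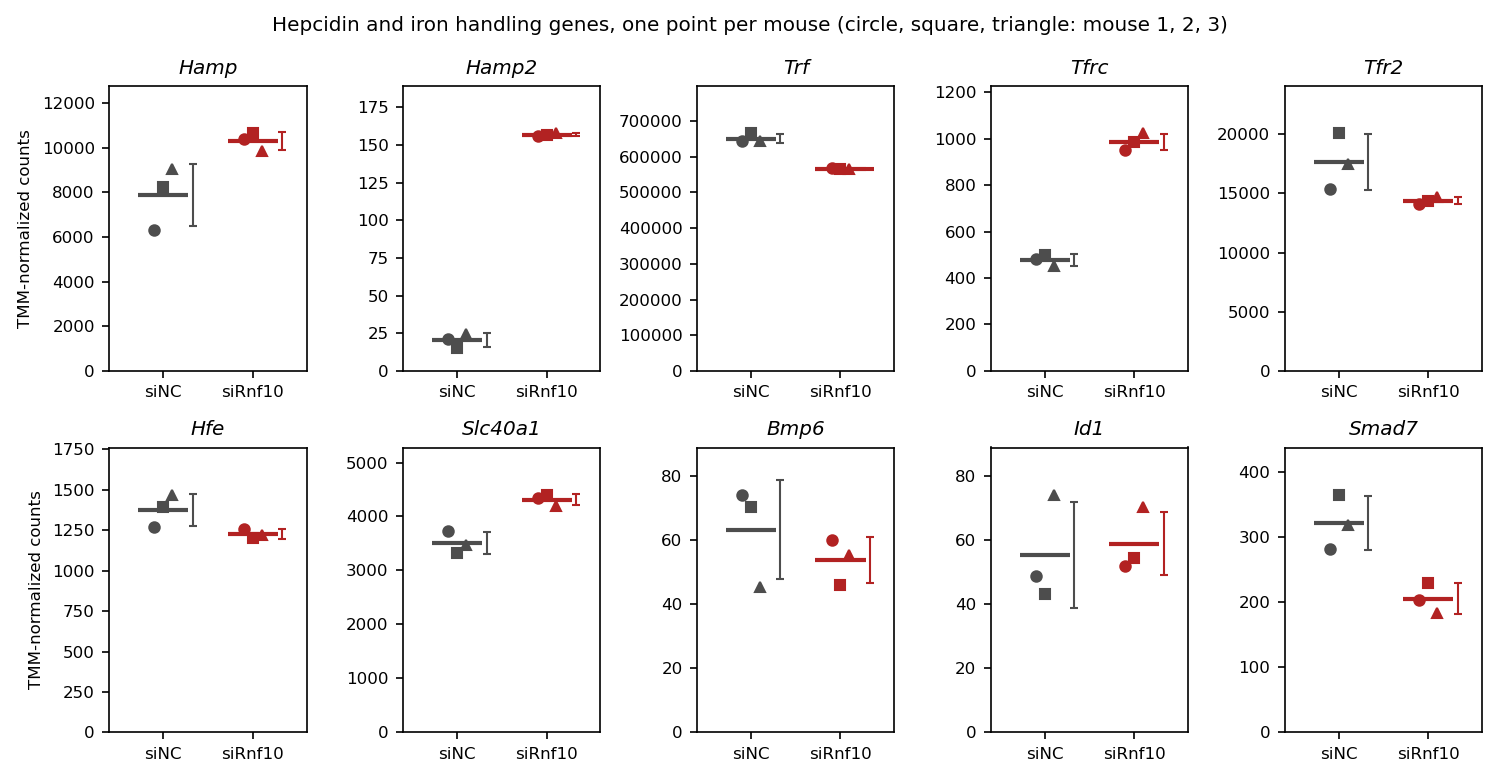
TMM-normalized counts (vertical axes, from 0, scaled per gene) of the 10 genes in GalNAc-siNC-treated (grey) and GalNAc-siRnf10-treated (red) mice, with 1 point per mouse, the group mean as a line and the SD as a bar. The groups overlap for Bmp6 and Id1, and Hamp2 lies at 15.5 to 24.7 in one group and 156.0 to 157.6 in the other.

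**Figure D2:**
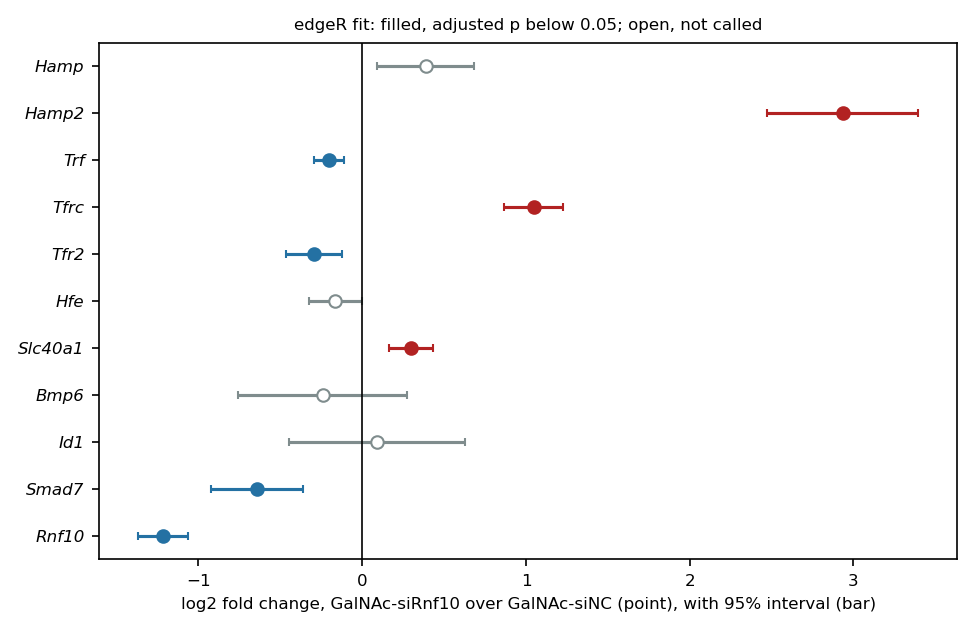
Log2 fold change of the 10 genes and of Rnf10 (horizontal axis) from the edgeR fit, with its 95% interval as a bar; filled points passed an adjusted p under 0.05. Hamp2 had the largest change of the 10, 2.93, and the intervals of Bmp6 and Id1 include 0.

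Hamp, the gene of the circulating hormone (chr7:30942368-30944032, minus strand, 3 exons), was abundant. Its normalized counts were 6333, 8239.8 and 9074 in GalNAc-siNC-treated mice and 10393, 10645 and 9875 in GalNAc-siRnf10-treated mice. Every GalNAc-siRnf10-treated mouse was above every GalNAc-siNC-treated mouse, and mouse 1 of the GalNAc-siNC group was the lowest. The means were 7882 ± 1405 and 10304 ± 392 (SD, n = 3), a log2 fold change of 0.39 (SE 0.13, 95% interval 0.09 to 0.68), and the difference was not called (edgeR, adjusted p = 0.0948).
This call turned on the setting. Without GalNAc-siNC-treated mouse 1 the log2 fold change was 0.25 (edgeR, adjusted p = 0.000126), and without mouse 3 it was 0.50 (edgeR, adjusted p = 0.00588). Hamp stayed uncalled without GalNAc-siNC-treated mouse 2 (edgeR, adjusted p = 0.261). The same held without GalNAc-siRnf10-treated mouse 1, 2 or 3 (edgeR, adjusted p = 0.180, 0.193 and 0.132). DESeq2, the tool of the study's methods, gave 0.39 (adjusted p = 0.00455). Offsets for GC content and gene length lowered the log2 fold change to 0.16 (edgeR, adjusted p = 0.0214). The Hamp model has 410 bases, and 1.15% of tested genes are as short or shorter, while their median was 4122.5 bases. The direction was the same under all 17 alternatives.

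**Figure D3:**
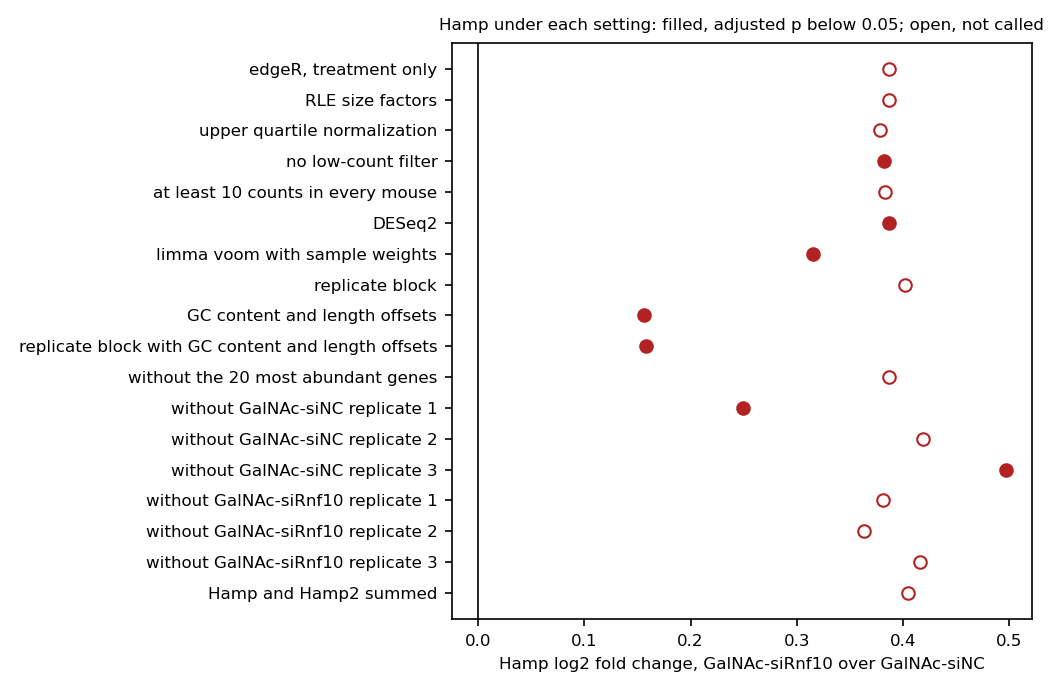
Hamp log2 fold change (horizontal axis) under each setting (rows), filled where the adjusted p was under 0.05. The values run from 0.16 with GC content and length offsets to 0.50 without GalNAc-siNC-treated mouse 3, and all lie above 0.

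Hamp2, the second hepcidin gene of mice (chr7:30922372-30924681, minus strand, 4 merged exons), was scarce and rose the most. Its deposited counts were 24, 15 and 25 in GalNAc-siNC-treated mice and 138, 164 and 148 in GalNAc-siRnf10-treated mice. After normalization these were 20.9, 15.5 and 24.7 against 156.0, 156.8 and 157.6, with a wide gap between the groups. The mean rose 7.70-fold, from 20.4 ± 4.64 to 157 ± 0.816 (SD, n = 3; log2 fold change 2.93, SE 0.22; edgeR, adjusted p = 5.00e-08). The SD of 0.816 is below the counting error of 138 to 164 counts, so it does not measure the spread among mice. The call held under every setting, with values of 2.71 to 3.08, and was 2.95 without GalNAc-siNC-treated mouse 1. A predicted gene, Gm44662, lies opposite 89 bases of Hamp2 and had 0 counts in every library.

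As a ratio within each library, the share of Hamp2 in the counts of both hepcidin genes does not depend on library size. It was 0.329% (exact 95% interval 0.211 to 0.489), 0.187% (0.105 to 0.309) and 0.271% (0.176 to 0.400) in GalNAc-siNC-treated mice. In GalNAc-siRnf10-treated mice it was 1.48% (1.24 to 1.74), 1.45% (1.24 to 1.69) and 1.57% (1.33 to 1.84). No interval of one group reached one of the other. The mean shares were 0.263% ± 0.0711 and 1.5% ± 0.0625 (SD, n = 3), a difference of 1.24 percentage points (p = 0.1 by the same exact permutation test). The intervals cover counting error only. Hamp still supplied nearly all hepcidin counts in each mouse, and the 2 genes summed changed by 0.40 (log2, SE 0.12), which was not called (edgeR, adjusted p = 0.0824). Without GalNAc-siNC-treated mouse 1 the sum changed by 0.27 (edgeR, adjusted p = 4.39e-05), and without mouse 3 by 0.51 (edgeR, adjusted p = 0.00447). The sum stayed uncalled without GalNAc-siNC-treated mouse 2 (edgeR, adjusted p = 0.245). The same held without GalNAc-siRnf10-treated mouse 1, 2 or 3 (edgeR, adjusted p = 0.159, 0.170 and 0.117).

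**Figure D4:**
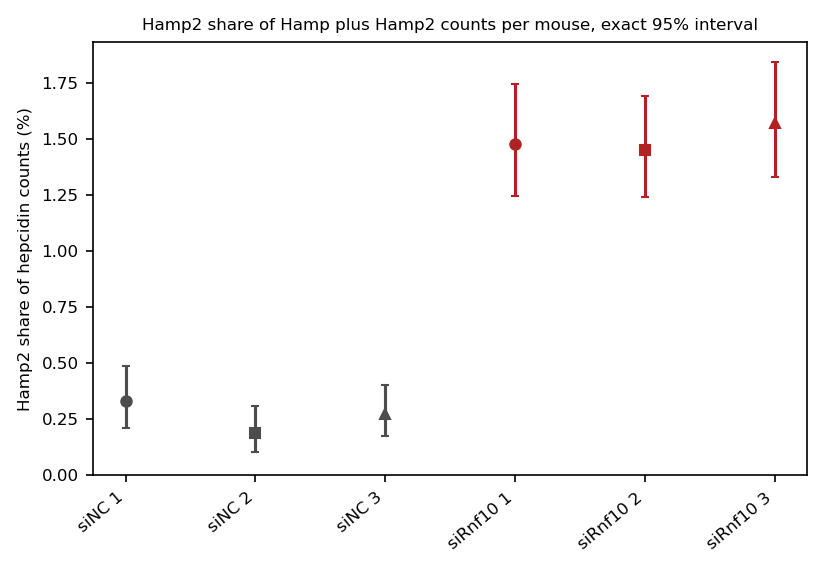
Share of Hamp2 in Hamp plus Hamp2 counts (vertical axis, percent) in each mouse, with the exact 95% binomial interval as a bar. The GalNAc-siNC-treated mice lie at 0.187% to 0.329% and the GalNAc-siRnf10-treated mice at 1.45% to 1.57%.

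Ccdc107, Mrpl20, Gtf2h5 and Cox4i1 were among the 5 genes whose pattern over the 6 mice was most like that of Hamp. Their root mean square difference from Hamp, on centred log2 CPM, was 0.0183 to 0.0286. Their log2 fold changes were 0.37 to 0.43, and with GC content and length offsets 0.30 to 0.39, where Hamp had 0.16. As these genes were picked for likeness to Hamp before offsets, folds near that of Hamp follow from the choice.

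Bmp6 encodes the endothelial ligand that links liver iron to hepcidin (chr13:38345107-38500302, plus strand). Its normalized counts were 74.0, 70.1 and 45.5 in GalNAc-siNC-treated mice and 59.9, 45.9 and 55.4 in GalNAc-siRnf10-treated mice, and the groups overlapped. The log2 fold change was -0.24, with a 95% interval of -0.76 to 0.27 (edgeR, adjusted p = 0.580), and it ranged from -0.43 without GalNAc-siNC-treated mouse 3 to -0.11 without mouse 1, never called. The value is uncertain for another reason: 224 bases, 5.74% of the Bmp6 model, lie opposite Txndc5, which had 4003 to 6004 counts where Bmp6 had as few as 46, and the strand setting of the counting is not given in the sources used here. The markers of sinusoidal endothelium, the source of BMP6, summed to 91.5 to 95.3 CPM in GalNAc-siNC-treated and 95.2 to 100.7 CPM in GalNAc-siRnf10-treated mice. By edgeR, 2 of 8 were higher (Clec4g and Lyve1) and 0 lower. DESeq2 called 1, higher, and voom called 2, of which only 1 was higher. Stab2, the most abundant of the 8 in GalNAc-siNC-treated mice, had a log2 fold change of -0.26 and was not called by edgeR. The part of these cells in the Bmp6 value was not tested.

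Tfr2, which encodes the hepatocyte sensor of iron-loaded transferrin (chr5:137569840-137587481, plus strand), fell. Its normalized counts were 15386, 20054 and 17516 in GalNAc-siNC-treated mice and 14109.6, 14341 and 14726 in GalNAc-siRnf10-treated mice. The groups did not overlap, although mouse 1 of the GalNAc-siNC group was close to the treated mice. The mean fell from 17652 ± 2337 to 14392 ± 311 (SD, n = 3; log2 fold change -0.29, SE 0.08; edgeR, adjusted p = 0.0242).
The size of the Tfr2 change varied with the mice included. It was -0.39 without GalNAc-siNC-treated mouse 1 and -0.19 without mouse 2 (edgeR, adjusted p = 0.0397). The call was lost without GalNAc-siNC-treated mouse 3 (edgeR, adjusted p = 0.0548) and without GalNAc-siRnf10-treated mouse 1, 2 or 3 (edgeR, adjusted p = 0.103, 0.0859 and 0.0699). With GC content and length offsets it was -0.16 and still called (edgeR, adjusted p = 0.0112).

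Hfe encodes the membrane protein that partners TFR1 and TFR2 in iron sensing and is lost in the common form of hereditary hemochromatosis (chr13:23702034-23710854, minus strand). In normalized counts, Hfe had 1267, 1390.3 and 1467 in GalNAc-siNC-treated mice and 1258, 1204 and 1217 in GalNAc-siRnf10-treated mice, so that the groups met closely without overlap. The log2 fold change of -0.16 (SE 0.08) was not called (edgeR, adjusted p = 0.178). Without GalNAc-siNC-treated mouse 1 it was -0.22 and called (edgeR, adjusted p = 0.0183).

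Trf encodes transferrin, the plasma carrier of iron that hepatocytes secrete (chr9:103204001-103230444, minus strand), and it made up 1.87% to 2.27% of all counts in a library. The 6 livers had Trf normalized counts of 643059, 665019 and 643316 in GalNAc-siNC-treated mice and 568567, 565381 and 564378 in GalNAc-siRnf10-treated mice. The groups were well separated and the mice of each group lay close together. The mean fell by 13.0%, from 650465 ± 12605 to 566109 ± 2187 (SD, n = 3; log2 fold change -0.20, SE 0.04; edgeR, adjusted p = 0.00408). The value was -0.21 without GalNAc-siNC-treated mouse 1. Leaving out GalNAc-siRnf10-treated mouse 1, 2 or 3 ended the call with nearly the same fold (edgeR, adjusted p = 0.0549, 0.0656 and 0.0583). Alb, another secreted hepatocyte product, went the other way, from 3.72% to 4.36% of counts up to 5.93% to 6.08%. Such products did not move together. Hpx (log2 fold change -0.51), Hp (-0.62) and Cp (-0.44) were lower like Trf, while 5 of 6 hepatocyte markers, Alb among them, were higher.

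Tfrc, which encodes TFR1, the receptor that takes up transferrin-bound iron (chr16:32608920-32632794, plus strand), rose. Its normalized counts were 481, 500.2 and 451 in GalNAc-siNC-treated mice and 951, 986 and 1022 in GalNAc-siRnf10-treated mice. The lowest treated mouse was far above the highest control. The mean rose 2.07-fold, from 477 ± 25.1 to 986 ± 35.9 (SD, n = 3; log2 fold change 1.05, SE 0.09; edgeR, adjusted p = 1.73e-07). The call held under every setting, at 1.00 to 1.08, and was 1.05 without GalNAc-siNC-treated mouse 1. The erythroid list, whose precursor cells are rich in TFR1, summed to 259.9 to 335 CPM in GalNAc-siNC-treated mice and 295 to 325 CPM in GalNAc-siRnf10-treated mice. Of its 8 genes, 6 were tested and 0 called by edgeR, by DESeq2 or by voom, with 0 at an unadjusted p under 0.05, and Alas2, its most abundant gene, had a log2 fold change of 0.09. Within the list, Epb42 had at most 4 counts in a library, while the globin gene Hbb-bs had 2267 to 3190. The part of erythroid cells in the Tfrc value was not tested.

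Slc40a1, the ferroportin gene (chr1:45908068-45926523, minus strand), rose by a smaller factor. Normalized counts of Slc40a1 were 3725, 3331 and 3467 in GalNAc-siNC-treated mice and 4349, 4398 and 4196 in GalNAc-siRnf10-treated mice, without overlap. The mean rose by 23.0%, from 3508 ± 199.9 to 4315 ± 106 (SD, n = 3; log2 fold change 0.30, SE 0.06; edgeR, adjusted p = 0.00402). The call held under every setting, at 0.26 to 0.34, the highest value being that without GalNAc-siNC-treated mouse 1. Macrophages also express ferroportin, and the 7 Kupffer cell and macrophage markers summed to 174 to 201 CPM in GalNAc-siNC-treated mice and 184 to 196 CPM in GalNAc-siRnf10-treated mice. Of the 7, 0 were called by edgeR, by DESeq2 or by voom, 1 had an unadjusted p under 0.05, and Clec4f, the most abundant, had a log2 fold change of 0.11. The part of these cells in the Slc40a1 value was not tested.

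Id1 and Smad7 are transcribed in response to BMP signals in hepatocytes, and SMAD7 in turn inhibits the pathway and hepcidin. Id1 (chr2:152736251-152737410, plus strand, 1 exon) had normalized counts of 48.7, 43.3 and 74.1 in GalNAc-siNC-treated mice and 52.0, 54.5 and 70.3 in GalNAc-siRnf10-treated mice. The groups overlapped over most of their range. Its log2 fold change was 0.09, with a 95% interval of -0.45 to 0.63 (edgeR, adjusted p = 0.860), it was 0.00 without GalNAc-siNC-treated mouse 1, and its sign changed between settings.
Smad7 (chr18:75367529-75395935, plus strand) fell. Normalized counts of Smad7 were 282, 365 and 319 in GalNAc-siNC-treated mice and 203, 230.4 and 183 in GalNAc-siRnf10-treated mice. Every treated mouse was below every control. The mean fell by 36.1%, from 322 ± 41.6 to 206 ± 23.7 (SD, n = 3; log2 fold change -0.64, SE 0.13; edgeR, adjusted p = 0.00335). The call held under every setting, at -0.73 to -0.51, and was -0.73 without GalNAc-siNC-treated mouse 1.

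Compared per kilobase of gene model, as CPM per kilobase, the levels in GalNAc-siNC-treated mice ran from Trf at 6604 ± 128 through Hamp at 648 ± 116 and Tfr2 at 137 ± 18.2 to Slc40a1 at 13.1 ± 0.749 and Hfe at 13.0 ± 0.951 (SD, n = 3). Tfrc had 2.60 ± 0.137, Smad7 2.40 ± 0.310, Id1 1.61 ± 0.478, Hamp2 1.18 ± 0.268 and Bmp6 0.546 ± 0.134 on the same scale. The ranges over mice overlapped between Slc40a1 and Hfe and between each neighbour from Tfrc to Hamp2. In GalNAc-siRnf10-treated mice, Hamp2 at 9.07 ± 0.0472 stood between Hfe at 11.6 ± 0.267 and Tfrc at 5.37 ± 0.196, and Slc40a1 at 16.2 ± 0.395 no longer overlapped with Hfe. The SD of Hamp2 in these mice is below its counting error. Id1 and Smad7 were the neighbours whose ranges overlapped in that group.

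Of 33 other genes of BMP-SMAD signalling, 28 were tested, 0 were higher and 3 were lower (edgeR, adjusted p under 0.05), and 8 had an unadjusted p under 0.05, 1 of them higher. The share called, 10.7%, was below the 14.0% of all genes tested, and the share with an unadjusted p under 0.05, 28.6%, was near the 26.7% of all genes. DESeq2 and voom also called 0 of them higher, but GC content and length offsets called the ligand gene Bmp2 higher (log2 fold change 0.47; edgeR, adjusted p = 0.0426). As reported without offsets, Bmp2 had 115 ± 3.36 and 156 ± 25.6 normalized counts (SD, n = 3; log2 fold change 0.44; edgeR, adjusted p = 0.0799). The median log2 fold change over the 28 was -0.07. The 3 lower genes were Hjv, Id2 and Id3. Hjv (Hfe2 in the annotation), which encodes the BMP coreceptor hemojuvelin, had normalized counts of 2109, 2325 and 2290.4 in GalNAc-siNC-treated and 1549, 1427 and 1401 in GalNAc-siRnf10-treated mice (log2 fold change -0.62; edgeR, adjusted p = 1.21e-05). Id3, a BMP target like Id1, fell from 1182 ± 236 to 585 ± 33.2 (SD, n = 3; log2 fold change -1.01; edgeR, adjusted p = 0.000360). Id2, another gene of the Id family of helix-loop-helix inhibitors, fell from 3574 ± 90.7 to 2203 ± 59.1 (SD, n = 3; log2 fold change -0.70; edgeR, adjusted p = 6.13e-07). All 3 groups of values were without overlap between treatments. Without GalNAc-siNC-treated mouse 1 the list had 7 calls, the additional genes being Bmp4, Tmprss6, Smad6 and Smurf1, all lower.

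Among 37 other iron handling genes, 33 were tested, 5 were higher and 9 were lower (edgeR), with a median log2 fold change of 0.03. The share called was 42.4%, beside 14.0% of all genes tested, in a list chosen with earlier results of these data known. Over all genes, 6.71% were called higher and 7.28% lower. Of the uptake genes, 3 of 8 tested were lower: the ferritin receptor gene Scara5 (log2 fold change -0.52) and the metalloreductase genes Steap3 (-0.45) and Steap4 (-1.09). Ftl1, the ferritin light chain gene, was 1 of 5 storage genes to rise, from 16686 ± 2054 to 25049 ± 536 (SD, n = 3; log2 fold change 0.59; edgeR, adjusted p = 0.000103). Fth1, the heavy chain gene, had 0.16 and was not called (edgeR, adjusted p = 0.193). Both ferritin values are uncertain to the extent that reads are shared with ferritin pseudogenes.
In heme and hemoglobin scavenging, 3 of 7 genes were lower and 1 was higher. The hemopexin gene Hpx fell from 426970 ± 32981 to 300141 ± 5456 and the haptoglobin gene Hp from 339506 ± 46145 to 220638 ± 3272 (SD, n = 3; log2 fold changes -0.51 and -0.62), and Lrp1, the receptor gene for hemopexin-heme, had -0.56. Cd163, which encodes the macrophage receptor for haptoglobin-hemoglobin, rose (0.37; edgeR, adjusted p = 0.0380), and this call was lost without any 1 mouse other than GalNAc-siNC-treated mouse 1 (edgeR, adjusted p = 0.0667 to 0.180). The ceruloplasmin gene Cp, whose product oxidises exported iron, fell (-0.44), and so did Lcn2, the siderophore-binding lipocalin (-1.44).
The mitochondrial genes Slc25a37 (0.27), an iron importer, and Cisd1 (0.44), an iron-sulfur protein, were higher, and Epas1 (-0.22), which encodes HIF-2 alpha, was lower. These 3 calls were lost in fits that left out 1 mouse: Slc25a37 for each mouse but GalNAc-siNC-treated mouse 1 (edgeR, adjusted p = 0.0554 to 0.185), Cisd1 without GalNAc-siNC-treated mouse 2 or any GalNAc-siRnf10-treated mouse (0.0952 to 0.166) and Epas1 without any GalNAc-siRnf10-treated mouse (0.0841 to 0.135). The list had 9 calls without GalNAc-siRnf10-treated mouse 1 or 2. Aco1 and Ireb2, the genes of the iron regulatory proteins, had log2 fold changes of 0.08 and 0.06 and were not called.

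**Figure D5:**
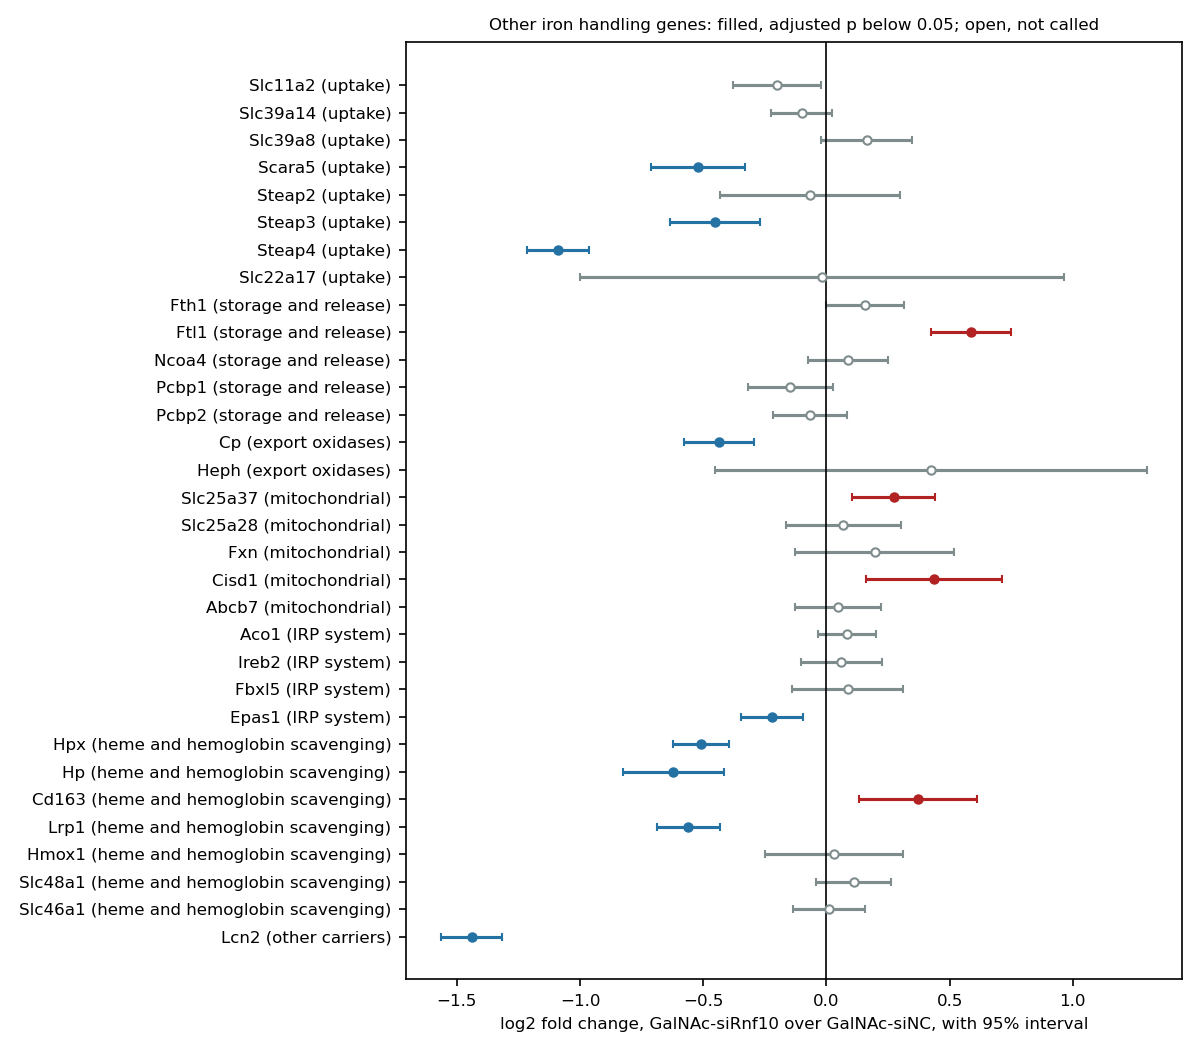
Log2 fold change (horizontal axis) of other iron handling genes tested, with the 95% interval as a bar, grouped by role; filled points passed an adjusted p under 0.05. Of the filled points, 9 lie below 0, Lcn2 at -1.44 the farthest, and Ftl1 at 0.59 lies farthest above 0.

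Of 13 genes of the inflammatory input to hepcidin, 12 were tested, 1 was higher and 4 were lower (edgeR), with a median log2 fold change of -0.16. The share called was 41.7%, beside 14.0% of all genes tested, and this list too was chosen with earlier results known. Socs3, the STAT3-induced feedback inhibitor, had normalized counts of 769.5, 1225 and 917 in GalNAc-siNC-treated mice and 375, 363 and 384 in GalNAc-siRnf10-treated mice (log2 fold change -1.37; edgeR, adjusted p = 0.000134). Stat3 itself fell from 5174 ± 314 to 3578 ± 28.4 (SD, n = 3; log2 fold change -0.53; edgeR, adjusted p = 1.42e-05). The cytokine receptor genes Il1r1 (-0.45) and Il22ra1 (-0.71) were lower, while Il6ra (0.55), the IL-6 receptor gene, was higher. The Il22ra1 call was lost without GalNAc-siNC-treated mouse 2 or GalNAc-siRnf10-treated mouse 1 or 3 (edgeR, adjusted p = 0.0701 to 0.0891). Il6 had too few counts to test.
Among the other marker lists, Spp1 was the 1 of 5 cholangiocyte markers called by edgeR, lower, and voom called 2, of which 0 were higher. The list summed to 68.5 to 69.9 CPM in GalNAc-siNC-treated and 37.8 to 38.9 CPM in GalNAc-siRnf10-treated mice. Most of this sum was Spp1, with mean normalized counts of 1836 and 982, so the sum does not give the level of the list as a whole. Stellate cell markers summed to 101 to 104 and 123 to 129.7 CPM, with 3 of 6 higher, Dcn the most abundant (log2 fold change 0.36). Those of T cells, B cells and neutrophils summed to 1.67 to 3.40 and 1.44 to 1.90 CPM, with 2 of 7 tested and S100a9 lower (-1.43). The part of these cells in the members' values was not tested.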

How the data were processed

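The authors extracted RNA from whole liver, made stranded mRNA libraries, sequenced them paired-end, used HISAT2 for mapping on GRCm38 and deposited unnormalized counts for each Ensembl gene together with gene model lengths. The counting tool, annotation release and strand setting are not given in the sources used here. Gene models had the length of GENCODE M21 for 99.0% of 55227 genes, and 346 of 55487 identifiers had no symbol. No per-sample column was left out.

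From the counts, edgeR 4.0.16 (R 4.3.3) was run with filterByExpr, TMM, robust estimateDisp, glmQLFit and the quasi-likelihood test on treatment alone, with Benjamini-Hochberg adjustment over 14046 genes. The biological coefficient of variation was 9.28%. The floor was set at 3 counts, which is at most 1.12e-05% of the total counts of a library. Exact permutation tests and binomial intervals used scipy 1.17.1, and the fit was tested on simulated data. Alternatives were RLE and upper quartile scaling, other filters, DESeq2 1.42.0, limma 3.58.1 voom, offsets for GC content and length, the replicate number as a block, and leaving out each mouse or the 20 most abundant genes. The members and lists were chosen with earlier results of these data known. Genes named are all members, Rnf10, called genes of the lists, the most abundant markers and the 5 genes with a mean count of at least 50 most like Hamp. Uncalled list genes, Clec4g, Lyve1, Epb42 and Hbb-bs were named after their values were seen. Promoters and start sites came from RefSeq and transcripts from GENCODE M21. Some genes that this rule names are not reported here, but they stay in the counts.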

Additional observations from a re-analysis of the deposited data

How the results depend on the processing

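Hamp passed the threshold without a low-count filter (log2 fold change 0.38), with DESeq2 (0.39), with voom (0.31), with GC content and length offsets (0.16), and with these offsets and the replicate block (0.16). The sum of both hepcidins passed under the same settings (0.40, 0.41, 0.33, 0.18 and 0.19) and with the block alone (0.42). Id1 turned to -0.017 with the offsets, to -0.055 without GalNAc-siNC-treated mouse 2 and to -0.055 without GalNAc-siRnf10-treated mouse 3. The BMP-SMAD list had 5 calls with upper quartile scaling, no filter, voom, the offsets, and the offsets with the block. Under both settings with offsets 1 of the 5 was higher, Bmp2 (0.47 in each), so that the count of 0 higher did not hold there. A minimum absolute log2 fold change of 1 left 2 members, Hamp2 and Tfrc, and 227 genes in all. Leaving out each mouse in turn gave Hamp 0.25 to 0.50, the hepcidin sum 0.27 to 0.51, Trf -0.21 to -0.19, Tfr2 -0.39 to -0.19, Hfe -0.22 to -0.12, Bmp6 -0.43 to -0.11, Id1 -0.055 to 0.35, 3 to 7 BMP-SMAD calls, 9 to 15 iron handling calls and 1053 to 2864 calls over all genes, each fit having fewer samples. Beyond that, the cause was not tested. Of 280 alternatives, 241 kept their direction and side of the threshold, or their count within 1.5 times.

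The replicate numbers are not a pairing: mice with the same number correlated at 0.00048, 0.046 and -0.044. The block gave 1816 calls and the same 6 members, and of the values tested it changed the calls of the hepcidin sum and of Cd163 (adjusted p = 0.0607, edgeR). Not every mouse correlated best with its own number. Depth limits Bmp6 and Id1, with at most 85 counts in a library, and Hamp2, with 15 to 25 counts in GalNAc-siNC-treated mice. With 3 mice a group no single-gene permutation test can pass 0.05.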
